A study of Mus musculus with 2 samples.

Results

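The genes Mir1a-1, Mir1a-2, Mir1b, Mir133a-1, Mir133a-2, Mir133b and Mir206 were examined in small RNA from mouse heart. They were taken by their GENCODE M21 symbols, and all 7 were present among the 2202 microRNA genes counted in each library. The samples are hearts of B6CASTF1/J females at 2 months of age, hybrids of a C57BL/6J and a CAST/EiJ parent for which the labels name no engineered allele and no treatment. There is a single group of 2 libraries and no control condition, so the data describe levels and the difference between 2 libraries. The labels number the replicates as different females under one donor label, and nothing else states that they came from separate animals.

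The miR-1 and miR-206 microRNAs, and the miR-133 microRNAs transcribed together with them, are the classic microRNAs of striated muscle. A microRNA pairs with messenger RNAs mainly through its seed, the bases just inside its 5′ end, and lowers their translation and stability. In heart muscle, miR-1 and miR-133a are known to be driven by SRF and MEF2, to restrain growth and to shape conduction and the contractile programme. miR-206 and miR-133b are known chiefly from skeletal muscle, where myogenic factors switch them on during differentiation and regeneration.

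RefSeq sequences on GRCm38.p6, the assembly also called mm10, were matched for 3 of the 7 genes and are shown here, Mir206 and Mir133b from chromosome 1 and 1 arm of Mir1a-1 from chromosome 2, to show how far each gene's letters differ from those of its relatives. In the mature sequences below, capitals mark the seed, bases 2 to 8 from the 5′ end.
miR-206-3p: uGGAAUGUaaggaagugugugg
miR-206-5p: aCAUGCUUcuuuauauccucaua
miR-1a-1-5p: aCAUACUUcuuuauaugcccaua
miR-133b-3p: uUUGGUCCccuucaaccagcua
miR-133b-5p: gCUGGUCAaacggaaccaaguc

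The first 10 bases of miR-206-3p, its seed GGAAUGU included, were also found in the Mir1a-1 and Mir1a-2 hairpins. The unbroken match from the 5′ end stopped there, and matches beyond it were not counted. In miR-206-3p no run over 12 bases was in common with any other annotated hairpin. The 5p arms of the same family, miR-1a-1-5p and miR-206-5p, matched at 20 of 23 positions. Counted from 1 at the 5′ end, with the miR-1a-1-5p base given first, they differed by A5G, G17C and C19U, and A5G lies in the seed. The miR-133 relatives were closer: 21 of the 22 bases of miR-133b-3p, from base 1, were found in both Mir133a hairpins, so that base 22 alone separates them. In its other arm, miR-133b-5p, the unbroken match from the 5′ end to the Mir133a hairpins was 6 bases long, and matches beyond it were not counted.

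In the hairpins of Mir206 and Mir133b the mature arms, in capitals, take up the stem on either side of the loop.
Mir206 hairpin: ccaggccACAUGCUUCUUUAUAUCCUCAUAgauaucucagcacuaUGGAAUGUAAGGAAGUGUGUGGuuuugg
Mir133b hairpin: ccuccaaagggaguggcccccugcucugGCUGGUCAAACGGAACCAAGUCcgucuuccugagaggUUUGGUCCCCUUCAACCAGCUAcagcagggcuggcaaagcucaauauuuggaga

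The 7 genes form 3 clusters in mm10. On chromosome 1, Mir206 (20679010 to 20679082, plus strand) and Mir133b (20682769 to 20682887, plus strand) lie 3686 bases apart in exons of the long non-coding gene Gm28653, which covers 60 bases of the Mir206 hairpin and all 119 of the Mir133b hairpin. On chromosome 2, Mir1a-1 (180389048 to 180389124, plus strand) and Mir133a-2 (180398379 to 180398482, plus strand) lie 9254 bases apart and inside no annotated gene other than themselves. On chromosome 18, Mir133a-1 (10782909 to 10782976) and Mir1a-2 (10785481 to 10785552) lie 2504 bases apart on the minus strand, in introns of their host transcript Mir133a-1hg and opposite an intron of Mib1, a ubiquitin ligase gene of Notch signalling. Mir1b (10785446 to 10785567) lies on the plus strand there and covers all 72 bases of Mir1a-2 on the other strand.

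Across whole hairpins, Mir206 had no window of 18 bases in common with a microRNA hairpin at another place, while Mir133b shared 1 run of 21 bases with both Mir133a genes. Mir1a-1 and Mir1a-2 shared an unbroken run of 28 bases, at bases 45 to 72 of the Mir1a-1 hairpin, and Mir1b carries the same run on its other strand. Mir133a-1 and Mir133a-2 shared 2 stretches that together cover 55 bases, the longer one 31 bases long. Of windows 22 bases long, about the length of a mature microRNA, 100% were free of a copy in Mir206 and Mir133b, 93.1% in Mir1b, 87.5% in Mir1a-1, 86.3% in Mir1a-2, 84.3% in Mir133a-2 and 72.3% in Mir133a-1. Copies outside annotated microRNA hairpins were not searched.

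**Figure D1:**
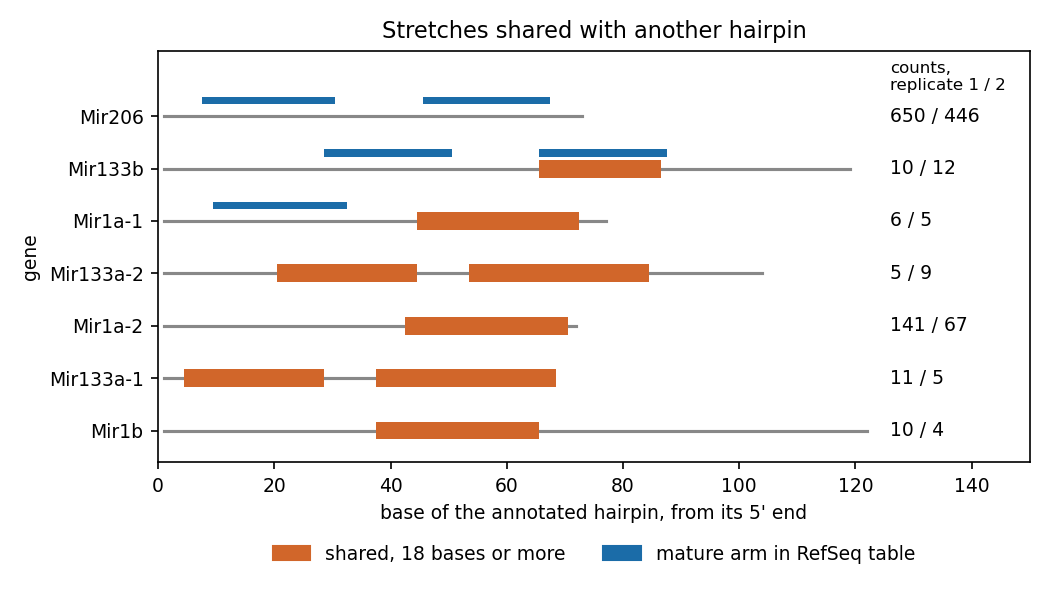
Hairpins of the 7 genes drawn to scale by base from the 5′ end. Orange bars mark stretches of at least 18 bases found in a microRNA hairpin at another place, blue bars the mature arms in the RefSeq table (available for Mir206, Mir133b and 1 arm of Mir1a-1), and the right column gives own-strand counts in replicates 1 and 2. Mir206 has no orange bar, and that of Mir133b covers its 3p arm except the last base.

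Replicate 1 held 8069273 reads, of which 2424441 counted for a microRNA gene on the strand it is transcribed from, and replicate 2 held 7995058, of which 2770301 did so. Reads that mapped to several places, 49.5% of replicate 1 and 42.7% of replicate 2, belong to no gene in these tables. Levels are given as CPM, the usual scaling of counts to a common library size, here the total of own-strand microRNA counts. Detection asked for 10 or more counts in each of the libraries. The heart muscle markers Mir208a, Mir208b and Mir499, microRNAs encoded in myosin genes, were all detected, and their summed share of counts was 0.598% in replicate 1 and 0.855% in replicate 2.

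Mir206 had the most counts of the 7 genes in both libraries. It had 650 counts in replicate 1, or 268 CPM (95% exact Poisson interval 248 to 290), and 446 in replicate 2, or 161 CPM (146 to 177). The mean was 215 ± 75.7 CPM (SD, n = 2). It held 78.0% of the counts of the 7 genes in replicate 1 and 81.4% in replicate 2, and all of its reads lay on its own strand. These shares cover only reads placed at single loci. Mir206 had no window of 18 bases in another hairpin, while the Mir1a genes shared 28 bases and the Mir133a genes 31. The shares thus do not rank miR-206 above miR-1a or miR-133a in the heart. The mean level of Mir206 ranked 107 of the 306 detected genes, whose median was 80.1 CPM. In tissue RNA, fewer cells that make a microRNA and less of it per cell cannot be told apart, and the cell type behind the Mir206 reads was not tested. Intervals here and below cover the counting error of reads only. No molecular identifiers were recorded, so copies of 1 molecule could not be told from separate molecules.

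Mir1a-2, the chromosome 18 copy of the heart and skeletal muscle microRNA miR-1a, was the second. It had 141 counts in replicate 1, or 58.2 CPM (49.0 to 68.6), and 67 in replicate 2, or 24.2 CPM (18.7 to 30.7), a mean of 41.2 ± 24.0 CPM and rank 191. Counts of Mir206 exceeded those of Mir1a-2 by 4.61 times in replicate 1 (exact interval 3.84 to 5.57) and 6.66 times in replicate 2 (5.14 to 8.74). The values of these genes overlapped neither with each other nor with those of the other members in either library. Mir1a-2 shares a run of 28 bases with Mir1a-1, and reads that mapped to several places are in no gene's count. The ratio of Mir206 to Mir1a-2 is thus one of counts placed at single loci, not of miR-206 to miR-1a.

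The other 5 genes had 4 to 12 counts in a library, between 1.44 and 4.54 CPM, and their counting intervals overlapped. Mir133b had 10 counts in replicate 1 and 12 in replicate 2, a mean of 4.23 ± 0.146 CPM. Mir133a-1 had 11 and 5 counts (3.17 ± 1.93 CPM), and Mir133a-2, which encodes the same mature miR-133a, had 5 and 9 (2.66 ± 0.839 CPM). Mir1a-1, the chromosome 2 copy of miR-1a, had 6 and 5 counts (2.14 ± 0.474 CPM), and Mir1b had 10 and 4 (2.78 ± 1.90 CPM). Each of these pairs gives replicate 1 and then replicate 2, and the order among the 5 genes did not exceed counting error. Divided by hairpin length, the mean levels were 294 CPM per 100 bases for Mir206 and 57.2 for Mir1a-2, and 2.28 to 4.66 for the other 5, with Mir133a-1 then above Mir133b.

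**Figure D2:**
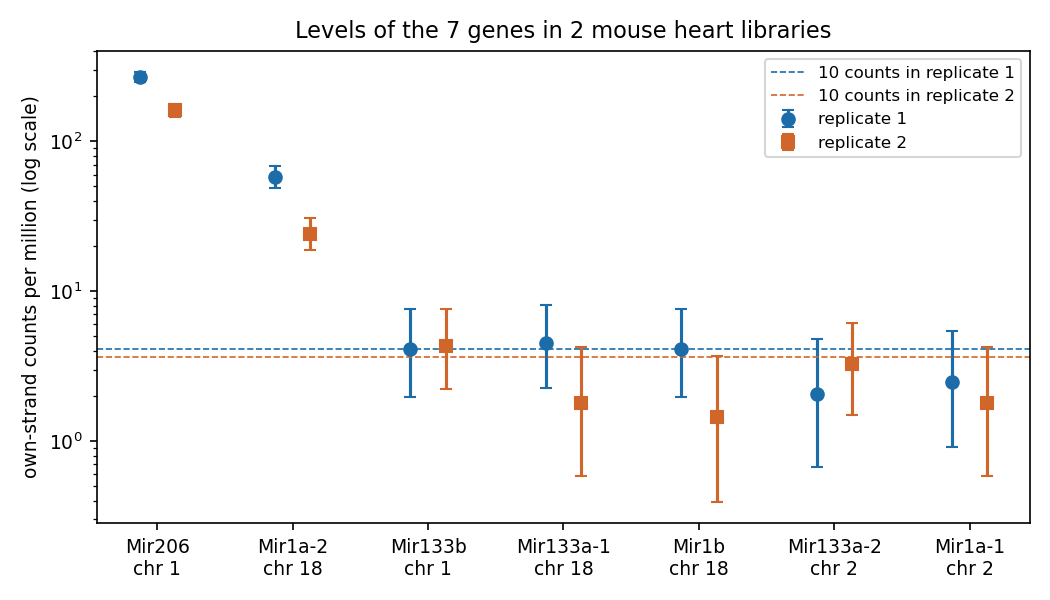
Level of each of the 7 genes in CPM on a log scale, circles for replicate 1 and squares for replicate 2. Bars are 95% exact Poisson intervals and dashed lines mark 10 counts in each library. Mir206 (268 and 161 CPM) and Mir1a-2 (58.2 and 24.2 CPM) stand above the other 5 genes, whose intervals overlap.

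Detection in both libraries was reached by 3 of the 7 genes, Mir206, Mir133b and Mir1a-2, against 13.9% of all 2202 microRNA genes. Of these, Mir133b lay at the minimum itself, with 10 counts in replicate 1 and 12 in replicate 2. The 4 others had counts in both libraries. A further gene named for the family, Mir133c on chromosome 2, had 0 counts in each library, which allows up to 1.24 CPM in replicate 1 and 1.08 CPM in replicate 2.

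Summed over the 7 genes, the libraries gave 833 counts in replicate 1, or 0.0344% of the microRNA counts (95% exact Clopper-Pearson interval 0.0321 to 0.0368), and 548 in replicate 2, or 0.0198% (0.0182 to 0.0215). Without Mir206 the sum was 183 counts in replicate 1 and 102 in replicate 2. Beside them, replicate 1 held 3992614 reads that mapped to several places and replicate 2 held 3410568, or 4793 and 6224 such reads for each count of the 7 genes. How many of those reads came from these genes was not tested, since the tables do not say where they mapped. The counts of Mir1a-1, Mir1a-2, Mir133a-1 and Mir133a-2 cover reads placed at 1 locus alone, and are not levels of miR-1a or miR-133a in the heart. The same limit holds for Mir133b, whose 3p arm matches both Mir133a hairpins over 21 of its 22 bases. It holds too for any ratio with the counts of these genes.

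By cluster, the chromosome 1 pair had 660 counts in replicate 1 and 458 in replicate 2, the chromosome 18 genes had 162 and 76, and the chromosome 2 pair had 11 and 14. The paired genes of a cluster are known to be made from a common transcript. Their counts differed beyond counting error on chromosomes 1 and 18, and not on chromosome 2. Mir206 had 65.0 times the counts of Mir133b in replicate 1 (exact interval 35.1 to 136) and 37.2 times in replicate 2 (21.1 to 72.5). Mir1a-2 had 12.8 times the counts of Mir133a-1 in replicate 1 (6.95 to 26.3) and 13.4 times in replicate 2 (5.47 to 42.6). On chromosome 2 the ratio of Mir1a-1 to Mir133a-2 was 1.20 in replicate 1 (0.305 to 4.97) and 0.556 in replicate 2 (0.146 to 1.85), so that neither gene was above the other beyond counting error. The ratio of Mir206 to Mir133b did not differ between the libraries beyond counting error (two-sided Fisher's exact test, p = 0.197), and each ratio's interval is wider than the gap between them.

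Of the duplicate genes for 1 mature product, the miR-1a pair was counted unequally and the miR-133a pair showed no difference beyond counting error. Mir1a-2 had 23.5 times the counts of Mir1a-1 in replicate 1 (10.5 to 65.1) and 13.4 times in replicate 2 (5.47 to 42.6). The 5p arm printed for the chromosome 2 gene differs from its copy: miR-1a-1-5p shared at most 14 bases in a row with another hairpin. Mir133a-1 and Mir133a-2 stood at a ratio of 2.20 in replicate 1 (0.705 to 8.08) and 0.556 in replicate 2 (0.146 to 1.85).

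At the chromosome 18 locus reads came from both strands. Mir1b, whose hairpin is the mirror of Mir1a-2, had 10 counts in replicate 1 and 4 in replicate 2, and the opposite-strand column of Mir1a-2 gave the same 10 and 4. Reads on the Mir1b strand made up 6.62% of the 151 reads of the locus in replicate 1 (exact interval 3.22 to 11.8) and 5.63% of 71 in replicate 2 (1.56 to 13.8). Over the 2138 microRNA genes with no microRNA gene on their other strand, opposite-strand reads made up 0.00409% in replicate 1 (0.00323 to 0.00511) and 0.00509% in replicate 2 (0.00414 to 0.00619). The 5 members away from this overlap had 1159 counts on the own strand and 0 on the other. Of the 1159, Mir206 alone had 650 in replicate 1 and 446 in replicate 2. Mir133b, Mir1a-1, Mir133a-2 and Mir133a-1 had 5 to 12 counts each in a library, so the 0 says little for them. Among 21 pairs of opposite-strand microRNA genes with at least 20 counts in each library, 13 had no read on the lesser strand. The pair of Mir1b and Mir1a-2 had the second highest lesser share, a mean of 6.13%, after Mir3074-1 over Mir24-1 (14.8%) and before Mir3107 over Mir486 (3.63%). This order is one of means. In replicate 1 alone Mir3074-1 over Mir24-1 stood at 6.53%, just under the 6.62% of Mir1b. The shares of Mir3107 over Mir486, 3.98% in replicate 1 and 3.28% in replicate 2, lay inside the intervals of Mir1b. The place of Mir1b before Mir3107 was thus not resolved. In the column that counts either strand, Mir1a-2 and Mir1b were both listed at 0, because reads over 2 genes belong to neither there.

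Other muscle microRNAs give the scale of these levels. Mir208a, hosted by Myh6, the main adult cardiac myosin gene of rodents, had 3739 counts in replicate 1 and 16249 in replicate 2, against which Mir206 stood at a ratio of 0.174 (0.160 to 0.189) and 0.0274 (0.0249 to 0.0302). Mir499, from the Myh7b gene, had 16.2 times the counts of Mir206 in replicate 1 and 16.4 times in replicate 2, so the libraries gave nearly the same ratio for this pair. Mir208b, from the beta myosin heavy chain gene that dominates in fetal and stressed rodent heart, was below Mir206: Mir206 had 3.19 times its counts in replicate 1 (2.72 to 3.75) and 4.09 times in replicate 2 (3.31 to 5.09). Mir486, known from muscle and red cells, stood at 1814 ± 148 CPM and its opposite-strand partner Mir3107 at 68.0 ± 4.22 CPM. The hairpins of these genes span 77 to 128 bases, and per 100 bases Mir206, at 294 CPM, again lay between Mir486 at 1417 and the pair of Mir208b at 80.2 and Mir3107 at 75.5.

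**Figure D3:**
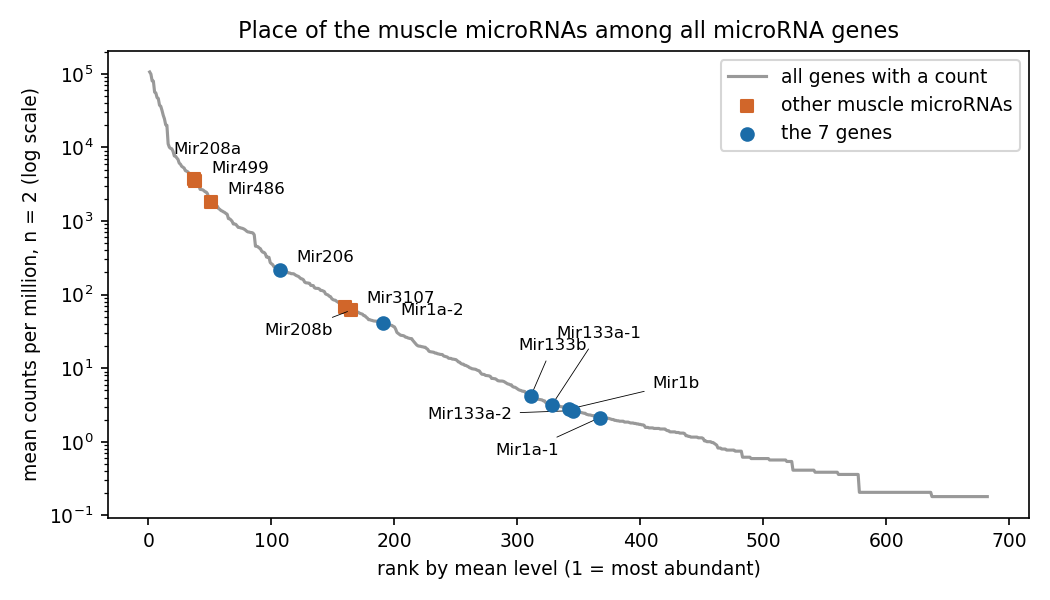
Mean level of microRNA genes with at least 1 count, in CPM on a log scale, by rank. Blue points are the 7 genes and orange squares are Mir208a, Mir499, Mir486, Mir3107 and Mir208b. Mir206 lies at rank 107 between Mir486 and Mir3107, Mir1a-2 at rank 191, and the other 5 genes between ranks 311 and 367.

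The genes nearest to Mir206 in mean level were Mir16-2 (233 ± 70.7 CPM), Mir1306 (216 ± 21.1) and Mirlet7f-1 (216 ± 41.5) above it and Mir186 (214 ± 67.8), Mir200c (214 ± 77.6) and Mir18 (211 ± 54.5) below it. These genes were picked by mean level, so the closeness of their means to that of Mir206 is not a result. None differed from it by more than the SD of Mir206 between the libraries. Library by library the closest was Mir186, with 262 CPM in replicate 1 and 166 in replicate 2. The epithelial microRNA Mir200c lay the other way round, with 159 CPM in replicate 1 and 269 in replicate 2.

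The comparison of the libraries asked whether the levels of the 7 genes held from 1 heart sample to the next. Mir206 was 1.67-fold higher in replicate 1 than in replicate 2 (exact interval 1.47 to 1.88, log2 ratio 0.74), and Mir1a-2 was 2.40-fold higher (1.79 to 3.27, log2 ratio 1.27). Both passed a two-sided exact binomial test with Benjamini-Hochberg adjustment over the 306 detected genes, with adjusted p of 2.1e-16 and 2.7e-09. Mir133b did not pass, at a fold of 0.952 (0.369 to 2.40, adjusted p = 1), and its interval leaves room for a difference as large as that of Mir206. With 2 of 3 tested members past the test, the share was near the background, since 61.1% of all detected genes passed it, and 41.5% passed with the higher level in replicate 1. At least 1.5-fold was reached by the same pair, against 36.6% of all detected genes in either direction and 25.5% higher in replicate 1.

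Differences of this size were set against those of all detected genes. The median detected gene had a log2 ratio of 0.19, and Mir206 was 0.74 and Mir1a-2 1.27 on the same scale, which are not corrected for it. The absolute log2 ratio of Mir206 exceeded that of 67.6% of detected genes and that of Mir1a-2 exceeded 89.2%. Scaled by TMM factors, 88 genes were higher and 92 lower in replicate 1, against 127 and 60 with library totals. The log2 ratio of Mir206 was then 0.56 and that of Mir1a-2 1.09, so that Mir206 fell under 1.5-fold while both still passed the test. The test compares 2 libraries, not conditions, and does not measure the spread between animals.

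The 4 members under the detection minimum were not tested in that fit. Their folds of replicate 1 over replicate 2 were 1.37 for Mir1a-1 (0.349 to 5.68), 0.635 for Mir133a-2 (0.167 to 2.11), 2.51 for Mir133a-1 (0.805 to 9.23) and 2.86 for Mir1b (0.824 to 12.5). Each interval includes both 1 and the 1.67-fold of Mir206. A difference of the size seen for Mir206 was thus not detectable for them at this depth.

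Of the 5 genes on the list of other muscle microRNAs, 2 were higher in replicate 1 and 2 lower by the same test. Mir208b was 2.14-fold higher and Mir499 1.65-fold higher in replicate 1, in the same direction as Mir206 and Mir1a-2. Mir208a stood at a fold of 0.263 and Mir486 at 0.891 in replicate 1 over replicate 2. Mir3107 did not pass the test (1.09, adjusted p = 0.51). The erythroid genes Mir451a and Mir144 made up 0.978% of all counts in replicate 1 and 9.37% in replicate 2. The fibroblast list, Mir21a, Mir199a-1, Mir199a-2 and Mir214, had 2 of 4 genes at 10 or more counts in each library. Its sum was 1.11% in replicate 1 and 0.251% in replicate 2, in the same direction as Mir206 and Mir1a-2. The part of each gene in this sum was not separated, so it does not show a shift of the list as a whole. The smooth muscle genes stood at 5.07% in replicate 1 and 4.45% in replicate 2, and the endothelial Mir126a at 7.37% and 8.53%. The part of these cell types in the difference of Mir206 and Mir1a-2 was not tested. With Mir451a left out of the library total, the log2 ratio of Mir206 was 0.62 and that of Mir1a-2 1.15, and both still passed the test.

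**Figure D4:**
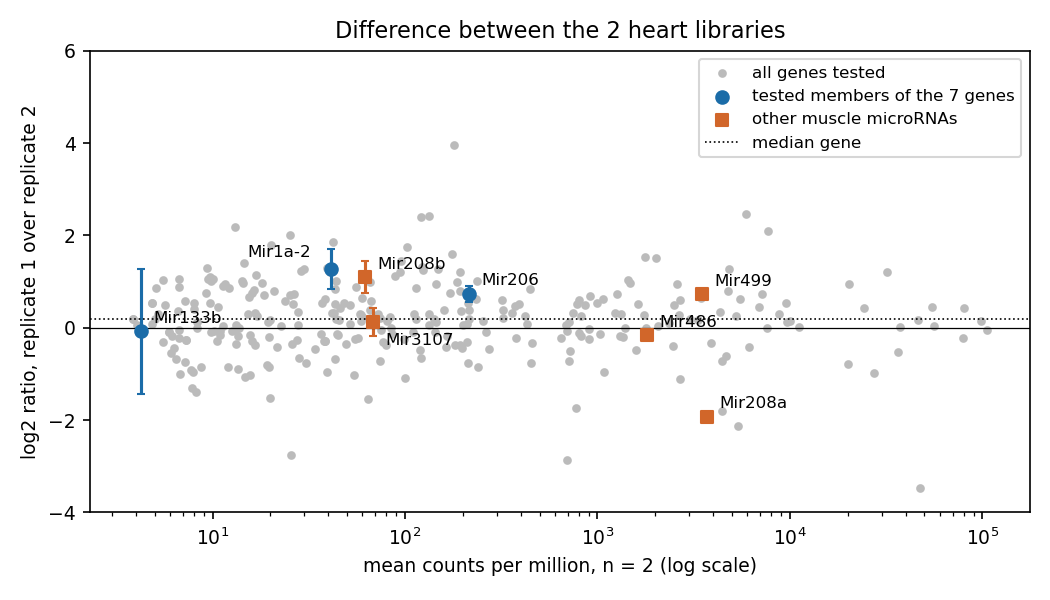
Log2 ratio of replicate 1 over replicate 2 against mean CPM on a log axis for the 306 detected genes (grey), with the 3 tested members in blue, the other muscle microRNAs in orange and 95% exact intervals as bars. Mir206 (0.74) and Mir1a-2 (1.27) lie above the median gene (dotted line, 0.19), Mir133b at -0.07 has an interval that spans it, and Mir208a lies at -1.93.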

How the data were processed

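Each library was given as a table of raw counts that the authors deposited, without normalization, as reads per microRNA gene. Per the labels the assembly was mm10, and a text file beside each table gives GENCODE M21 as the annotation. The sources used here name no aligner, counter or trimming step. The 3 count columns have no header and were read from their values as either strand, own strand and opposite strand. The 4 lines that name no gene held 70.0% of replicate 1 and 65.3% of replicate 2 (own strand) and stayed out of library totals and tests.

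The 7 genes and the lists were chosen with earlier results of these data known. Named besides them were 5 muscle microRNAs, the 3 genes on each side of Mir206 in mean level, and opposite-strand partners; Mir133c, Mir3074-1 and Mir24-1 were added after their values were seen. CPM, exact Poisson and Clopper-Pearson intervals (95%), Fisher's exact test and the binomial test given library totals (threshold 0.05, at least 10 counts in both libraries) were computed from own-strand counts. With 2 libraries in 1 group no replicated test exists. The p-values measure the difference between these samples, which may be technical. The tables were not copies (chi-square of 1138 per degree of freedom over detected genes). The binomial test had been checked on counts simulated with known changes. A count of 0 was taken to allow 3 counts.

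Hairpins from the M21 transcripts were searched on both strands for exact runs shared with a hairpin at another place. Mature and hairpin sequences are RefSeq's on GRCm38.p6. Python 3.11.15, numpy 2.4.6, pandas 2.3.3, scipy 1.17.1, matplotlib 3.10.9, R 4.3.3, edgeR 4.0.16 (TMM factors) and DESeq2 1.42.0 (size factors) were used. Alternatives were the either-strand column, other denominators, factors, minimums, hairpin length and each replicate alone.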

Additional observations from a re-analysis of the deposited data

Results flagged for a closer look

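Reads on the strand opposite Mir1a-2 numbered 10 in replicate 1 and 4 in replicate 2, more than the 3 that a count of 0 allows. They equal the own-strand counts of Mir1b. The 5 members away from that overlap had 0 opposite-strand counts, but most of their own-strand counts were those of Mir206.

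Reads that mapped to several places numbered 3992614 in replicate 1 and 3410568 in replicate 2 and lie outside every gene's count. The part of the 7 genes in them was not tested.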

How the results depend on the processing

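No paired analysis was possible because the labels give 1 group. With all reads of the library in the denominator, the share of the 7 genes was 0.00859% in place of 0.0271% and the level of Mir206 was 68.2 in place of 215 CPM. Divided by hairpin length, the ratio of Mir206 to Mir133b was 83.3 in place of 51.1. With each replicate alone, the share ran from 0.0198% to 0.0344%, the level of Mir206 from 161 to 268 CPM, that ratio from 37.2 to 65.0, and the number of detected genes among the 7 from 3 to 5. With a minimum of 5 counts 6 of the 7 were detected, with a minimum of 1 count 7, and by either-strand counts 2, since Mir1a-2 is listed at 0 there. The number of genes that differed between the libraries was 187 of 306, and 112 of 306 when a difference of at least 1.5-fold was also asked. The other 6 alternatives gave 158 to 183, but out of unlike numbers tested. They were 183 of 682 with no count minimum, 158 of 213 at 50 counts and 158 of 282 by either-strand counts. Without Mir451a the number was 177 of 305, with TMM factors 180 of 306 and with DESeq2 size factors 181 of 306. The DESeq2 size factors were 1 in each library, so that alternative compared counts without scaling. Mir206 was higher in replicate 1 and passed the test under each of 5 alternatives, with log2 ratios of 0.53 to 0.62 and adjusted p from 8.6e-12 to 5.8e-09, against 0.74 and 2.1e-16. Mir1a-2 was absent from the either-strand test and passed under the other 4. Of 36 alternative values for the other 6 genes 22 stayed within the SD between libraries and 14 moved by more. Of the 14, 6 were with all reads in the denominator and 5 by either-strand counts. The SD used here can be smaller than counting error. For Mir133b it was 0.146 CPM, against a counting interval of 1.98 to 7.59 CPM in replicate 1. A change from 4.23 to 4.45 CPM, without Mir451a in the denominator, was therefore listed among the 14. The 22 include 6 values without replicate 1 and 6 without replicate 2, which could not have moved. With 2 libraries, a single replicate always lies within that SD of the mean. With no count minimum the 4 genes under 10 counts did not pass the test (adjusted p 0.25 to 0.97). At 4 to 12 counts, differences among the 5 lower genes could not be resolved at this depth.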
